A study of Homo sapiens with 48 samples.

Results

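The 10 genes of cyclin B, CDK1 and the anaphase-promoting complex, which carry a cell into and out of mitosis, were followed through a pooled CRISPR knockout screen of squamous carcinoma cells. They were chosen by gene name: 2 B-type cyclins, their kinase CDK1, 2 CKS proteins and 1 phosphatase that act on it, 3 genes that work with the anaphase-promoting complex and 1 of its targets. All 10 were among the 327 genes with values in each of 5 deposited tables, 1 per line and setting. The screen measured how often each knockout was found after growth relative to the initial cells, in SCC13, a skin squamous carcinoma line, CAL27, a tongue squamous carcinoma line, and A431, an epidermoid carcinoma line.

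The later samples were 16 SCC13 tumors, 10 CAL27 tumors, 2 CAL27 cultures, 8 A431 tumors and 2 A431 cultures, and each was set against 2 initial samples of the same line and setting. All cells of all groups, the initial ones included, carried a stable Cas9 transgene and 1 pooled guide library delivered by lentivirus at a multiplicity of 0.3. Cultures were grown for 3 weeks and tumors for about 2 months in the flanks of immunodeficient mice, which were NOD.Cg-Prkdcscid Il2rgtm1Wjl/SzJ mice for SCC13 and SHO mice for CAL27 and A431. Mouse strain and SCC13 cells therefore cannot be told apart, and SCC13 has no culture group here. How tumors were spread over mice, and whether the cultures of a line were split from 1 flask, is not labelled, so p-values cover the variation among these samples and no more.

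Cyclin B binds CDK1, and the active kinase drives chromosome condensation, spindle assembly and the other steps of entry into mitosis. CCNB1 and CCNB2 encode the main cyclin B proteins, and CCNB1 is the form that cells are known to need most. CKS1B and CKS2 encode small paralogous proteins that bind CDKs and help the kinase to find phosphorylated substrates. CDKN3 encodes a phosphatase that removes the activating phosphate of CDKs. Exit from mitosis starts when CDC20 activates the anaphase-promoting complex, a ubiquitin ligase that works with the ubiquitin-conjugating enzymes UBE2C, which starts ubiquitin chains, and UBE2S, which extends them. PTTG1 encodes securin, a target of the complex that holds back separase until anaphase.

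The CKS pair gave the clearest contrast between paralogs, so both coding sequences are shown, 5′ to 3′, from the GENCODE annotation on GRCh37, with the bases that differ between them in capitals. CKS1B lies on the plus strand at chr1:154947129-154951727 and CKS2 on the plus strand at chr9:91926110-91931618, each with 3 coding exons.
CKS1B: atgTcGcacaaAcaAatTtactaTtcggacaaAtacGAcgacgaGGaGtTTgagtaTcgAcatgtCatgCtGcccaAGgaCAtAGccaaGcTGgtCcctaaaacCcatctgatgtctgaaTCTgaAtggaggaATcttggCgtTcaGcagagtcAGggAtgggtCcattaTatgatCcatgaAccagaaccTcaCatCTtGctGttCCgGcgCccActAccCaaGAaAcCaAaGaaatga
CKS2: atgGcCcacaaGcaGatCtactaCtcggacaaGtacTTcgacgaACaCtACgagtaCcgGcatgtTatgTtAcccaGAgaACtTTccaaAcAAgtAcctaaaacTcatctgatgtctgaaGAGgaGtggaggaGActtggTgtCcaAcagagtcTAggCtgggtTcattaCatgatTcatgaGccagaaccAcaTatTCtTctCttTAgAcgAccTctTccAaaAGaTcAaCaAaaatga
Each is 240 bases long with its stop codon, and 175 of the aligned bases (72.9%) are identical. The longest run the 2 genes share is 15 bases, and they share no run of 20 bases. CCNB1 (chr5:68462962-68474072, plus strand, 9 coding exons) and CCNB2 (chr15:59397325-59417244, plus strand, 9 coding exons) have coding sequences of 1302 and 1197 bases, of which 761 of 1172 aligned bases (64.9%) are identical, with a longest shared run of 11 bases. The guides' own sequences, their number per gene and their cutting efficiency were not used here.

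A value below is a log fold change per gene relative to the initial cells, in log units of an unstated base, after subtracting the median over the 327 genes of the same tumor or culture. Negative values are read as loss of the knockout. As deposited, the values are relative to the non-targeting guides, and the median gene lay between -2.67 and 0.53 log units in the SCC13 tumors, between -1.50 and -0.56 in the CAL27 tumors, at -0.49 and -0.47 in the CAL27 cultures, between -0.55 and -0.07 in the A431 tumors and at -0.37 and -0.36 in the A431 cultures. In SCC13 and CAL27 tumors many genes also moved in step: the same difference between a pair of tumors, to 6 decimals, recurred in at least 4 genes, and such values are called at the floor here. The level of the floor differs from gene to gene. A value at the floor is read as an upper bound, which is inferred from these shared differences, as the pseudocount is not given. On that reading the gene's own value was at or below its floor value, so a floor value above 0 shows no loss. Floor values of different genes have no order. Between 8 and 140 genes were at the floor in each SCC13 tumor, at most 16 in a CAL27 tumor, 6 in each CAL27 culture, none of them a member, and none in A431.

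Between 3 and 7 of the 10 knockouts were called depleted in each group, with the higher counts in SCC13 and CAL27 and the lower ones in A431. In SCC13 tumors 7 of the 10 fell and 1 (CKS2) rose past an adjusted p of 0.05 by limma, against 23.9% and 23.5% of all genes. In CAL27 tumors 7 fell and 1 rose, again CKS2, against 22.0% and 18.7% of all genes. In CAL27 cultures 6 fell and none rose, against 18.7% and 4.89%. In A431 tumors 4 fell and none rose, against 11.9% and 7.95%. In A431 cultures 3 fell and none rose, against 11.3% and 2.14%. The median over the 10 genes was -1.50 log units in SCC13 tumors, -1.15 in CAL27 tumors, -0.57 in CAL27 cultures, -0.47 in A431 tumors and -0.41 in A431 cultures, while the median over all genes lay between -0.02 and 0.02 in each group. With floor values left out, CCNB1 was the 1 member still called lower in SCC13 tumors and CKS2 was not called. That fit drops the bounding values, 12 of 16 for CCNB1, 14 for CDC20 and all 16 for CDK1. It keeps few tumors for such genes, so a call lost there does not show that the gene was not depleted. By an exact sign-flip test no member was called in A431 tumors (adjusted p from 0.0655 for UBE2S). CCNB1 and UBE2S were the members that fell in all 5 groups, and CDKN3 passed the threshold in none.

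**Figure D1:**
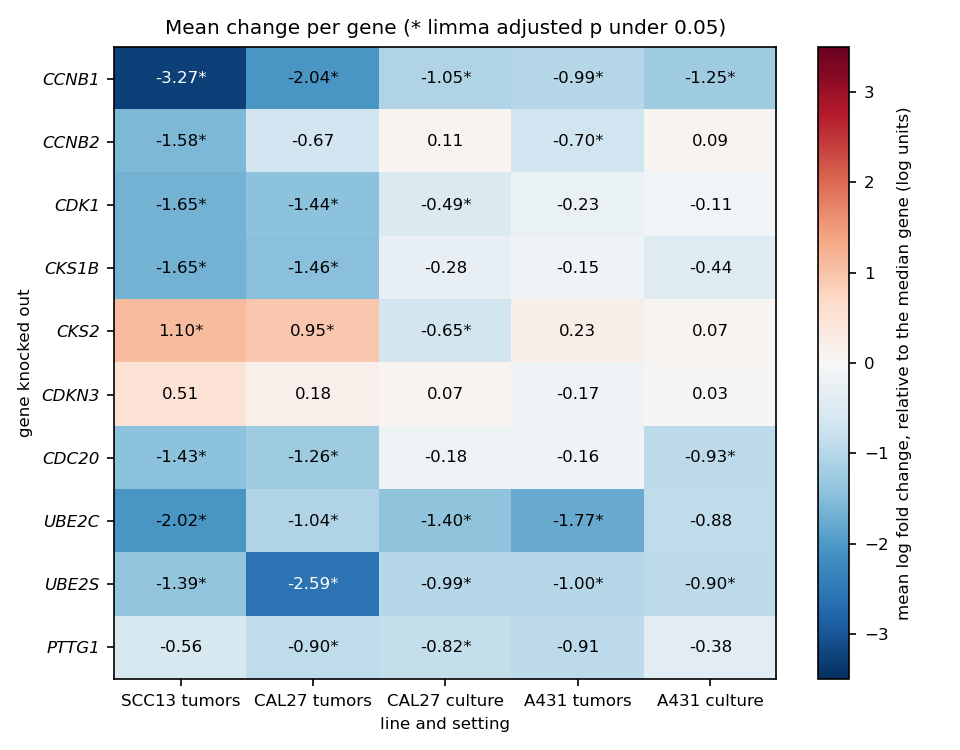
Mean log fold change of each of the 10 genes (rows) in each line and setting (columns), in log units relative to the median gene; blue is loss, red is gain, and a star marks a limma adjusted p under 0.05. CCNB1 and UBE2S are starred in every column, CDKN3 in none, and CKS2 is red and starred in the SCC13 and CAL27 tumors but blue and starred in CAL27 culture.

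CCNB1 was lost in every line and setting. In SCC13 tumors it had values between -5.71 and -0.51 with a median of -3.36, below the median gene in 16 of 16 tumors. The mean was -3.27 ± 1.51 (SD, n = 16, limma adjusted p = 3.53e-09), with 12 of the 16 values at the floor. It was the 4th lowest of the 327 gene means as they stand, a rank that depends on where the floors lie. CAL27 tumors ranged from -4.63 to 0.15 with a median of -2.09, and 9 of 10 lay below 0 (mean -2.04 ± 1.484, SD, n = 10, limma adjusted p = 0.000404). Only the tumor of value column 1 lay above 0 there.

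In the CAL27 cultures CCNB1 stood at -0.88 and -1.22 (mean -1.05 ± 0.24, SD, n = 2, limma adjusted p = 0.0199). The 8 A431 tumors ranged from -2.45 to 0.11 with a median of -0.95, with 7 of 8 below 0 (mean -0.99 ± 0.87, SD, limma adjusted p = 0.0212), a call lost without the tumor of value column 1 (mean -0.78, adjusted p = 0.0572), 5 or 7. The A431 cultures gave -1.52 and -0.97 (mean -1.25 ± 0.39, SD, n = 2, limma adjusted p = 0.0215). The cultures thus sat inside the range of the tumors of their own line.

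CCNB2, the second mitotic B-type cyclin, was lost less evenly. It fell in SCC13 tumors, with values between -4.92 and 2.13, a median of -1.55 and a mean of -1.58 ± 1.72 (SD, n = 16, limma adjusted p = 0.00266), and 15 of 16 tumors were below 0. It also fell in A431 tumors, between -1.46 and 0.10 with a median of -0.68 and a mean of -0.70 ± 0.55 (SD, n = 8, limma adjusted p = 0.0343), but any 1 of 6 tumors left out ended this call (value columns 1, 2, 3, 5, 7 and 8, adjusted p up to 0.0748). In CAL27 tumors the 10 values split evenly around 0, from -4.70 to 0.97 with a median of 0.01, and the mean of -0.67 ± 1.71 did not pass (SD, limma adjusted p = 0.248). It stayed near the median gene in culture, at -0.03 and 0.24 in CAL27 and at 0.24 and -0.06 in A431, and neither culture group passed.

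CDK1 (chr10:62538089-62554610, plus strand), the kinase itself, was depleted in CAL27 and SCC13 and, relative to the median gene, was not called in A431. The 10 CAL27 tumors ranged from -2.92 to 0.05 with a median of -1.25, and 9 were below 0 (mean -1.44 ± 1.05, SD, limma adjusted p = 0.00178). In the CAL27 cultures it stood at -0.59 and -0.39 (mean -0.49 ± 0.14, SD, n = 2, limma adjusted p = 0.0403). A431 tumors spread on both sides of 0, from -0.90 to 0.59 with a median of -0.59 (mean -0.23 ± 0.62, SD, n = 8, limma adjusted p = 0.504). Of these 8 tumors, 5 lay between -0.90 and -0.59 and 3 between 0.46 and 0.59. The A431 cultures lay at -0.10 and -0.11 (limma adjusted p = 0.535). Against the non-targeting guides these cultures were called lower (mean -0.47, limma adjusted p = 0.0245). The difference of CDK1 from A431 tumors was -1.42 in SCC13 and -1.21 in CAL27, and neither passed (limma adjusted p = 0.125 and 0.407). Without the SCC13 tumor of value column 3 the first was -1.65 (adjusted p = 0.0478). It also passed without centring (-2.76, adjusted p = 0.00151), with array weights (-1.67, 0.0127) and with a spread per group (0.0280). The CAL27 difference passed with a spread per group (adjusted p = 0.0289). All SCC13 values of CDK1 were at the floor, so the SCC13 difference is itself a bound. The p-values of that difference rest on how the floor shifted between SCC13 tumors and do not measure how the loss of CDK1 varied.

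In SCC13 tumors CDK1 ranged from -5.98 to 1.81 with a median of -1.21 and a mean of -1.65 ± 2.06 (SD, n = 16, limma adjusted p = 0.00233). Every one of these 16 values was at the floor. Besides CDK1, only ACTB, the beta-actin gene, named here after its values were seen, was at the floor in all 16 tumors. The median gene was at the floor in 3 of them, and 105 of the 327 genes in none. The CDK1 values therefore mark the floor of CDK1 in each tumor, and their mean is an upper bound on its mean value. Their SD and p-value describe how that floor lay against the median gene from tumor to tumor. They do not measure how the loss of CDK1 varied.

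How often a gene reached the floor depends on where its own floor lay, so the counts over the 10 genes describe the values and give no order of loss. CDC20 was at the floor in 14 tumors, and 14 of the 327 genes, itself included, were there that often. CCNB1 and UBE2C were there in 12 tumors each, CKS1B in 10, UBE2S in 7, CCNB2 in 5, PTTG1 in 3, CKS2 in 2 and CDKN3 in 0. In the tumor with the fewest floor genes (8), CDK1 was at its floor of -5.85. There UBE2C stood at -6.86, the 5th lowest of the 327 values as they stand, CDC20 at -3.87 (20th) and CCNB1 at -3.25 (27th). In the tumor with the next fewest (13), CDK1 and CDC20 were at their floors of -5.98 and -5.53, while CCNB1 stood at -2.96 (42nd) and UBE2C at -1.08 (94th). Values at the floor are given no rank here.

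**Figure D2:**
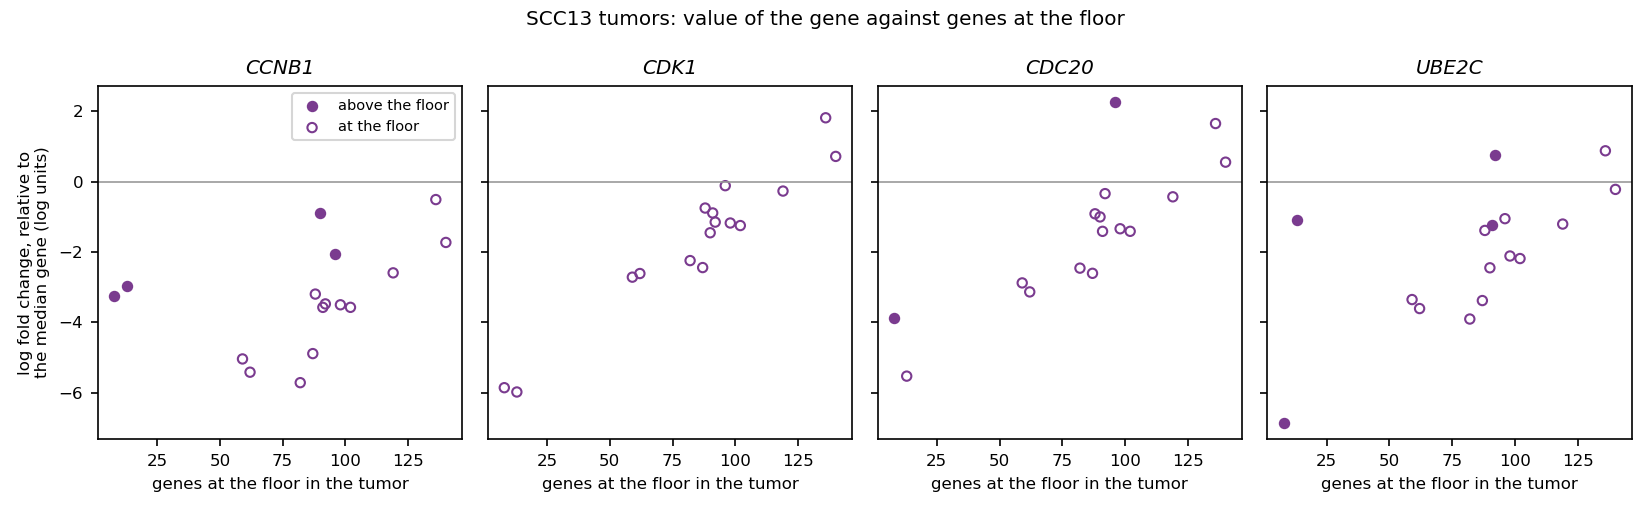
Value of CCNB1, CDK1, CDC20 and UBE2C in each of the 16 SCC13 tumors (y axis, log units relative to the median gene) against the number of genes at the floor in that tumor (x axis); open points are at the floor. All CDK1 points are open and climb from -5.85 at 8 floor genes to values above 0 at the most floor genes, while CCNB1 lies below 0 in every tumor.

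The 2 CKS genes went opposite ways in the tumors of 2 lines. CKS1B, whose protein also serves as a cofactor of the SKP2 ubiquitin ligase, fell in CAL27 tumors, where all 10 values lay below 0, from -3.31 to -0.28 with a median of -1.12 (mean -1.46 ± 1.09, SD, limma adjusted p = 0.00187). It fell in SCC13 tumors as well, from -3.15 to 0.40 with a median of -1.76 (mean -1.65 ± 1.00, SD, n = 16, limma adjusted p = 0.000953). It was not called in CAL27 cultures (-0.25 and -0.32), A431 tumors (from -1.13 to 0.67, median -0.02, 4 of 8 below 0) or A431 cultures (-0.53 and -0.35), whose limma adjusted p values were 0.0667, 0.662 and 0.0873.

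CKS2 lay above the median gene in all 10 CAL27 tumors, from 0.02 to 1.99 with a median of 0.93 (mean 0.95 ± 0.61, SD, limma adjusted p = 0.0119). In SCC13 tumors 11 of 16 values were above 0, with a lowest of -1.56, a median of 0.67 and a highest of 6.33 (mean 1.10 ± 2.11, SD, limma adjusted p = 0.0456). Both rises are relative to the median gene: against the non-targeting guides the mean was 0.13 in CAL27 tumors and -0.52 in SCC13 tumors, and neither passed. Leaving out any 1 of 7 SCC13 tumors also ended the SCC13 call, and without the tumor of value column 11 the mean was 0.75 (limma adjusted p = 0.197).

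In culture CKS2 was not raised. It fell in the CAL27 cultures, at -0.69 and -0.61 (mean -0.65 ± 0.06, SD, n = 2, limma adjusted p = 0.0175), and stood at 0.11 and 0.03 in the A431 cultures. In A431 tumors it ranged from -1.74 to 0.89 with a median of 0.55 and did not pass (mean 0.23 ± 0.91, SD, n = 8, limma adjusted p = 0.596). CDKN3 (chr14:54863567-54886936, plus strand), the phosphatase, stayed near the median gene everywhere, with means of 0.51 ± 1.76 in SCC13 tumors, 0.18 ± 1.53 in CAL27 tumors, 0.07 ± 0.17 in CAL27 cultures, -0.17 ± 0.67 in A431 tumors and 0.03 ± 0.05 in A431 cultures (SD, n = 16, 10, 2, 8 and 2). Its spread between tumors was wide, from -2.63 to 5.29 in SCC13 and from -2.36 to 3.27 in CAL27.

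**Figure D3:**
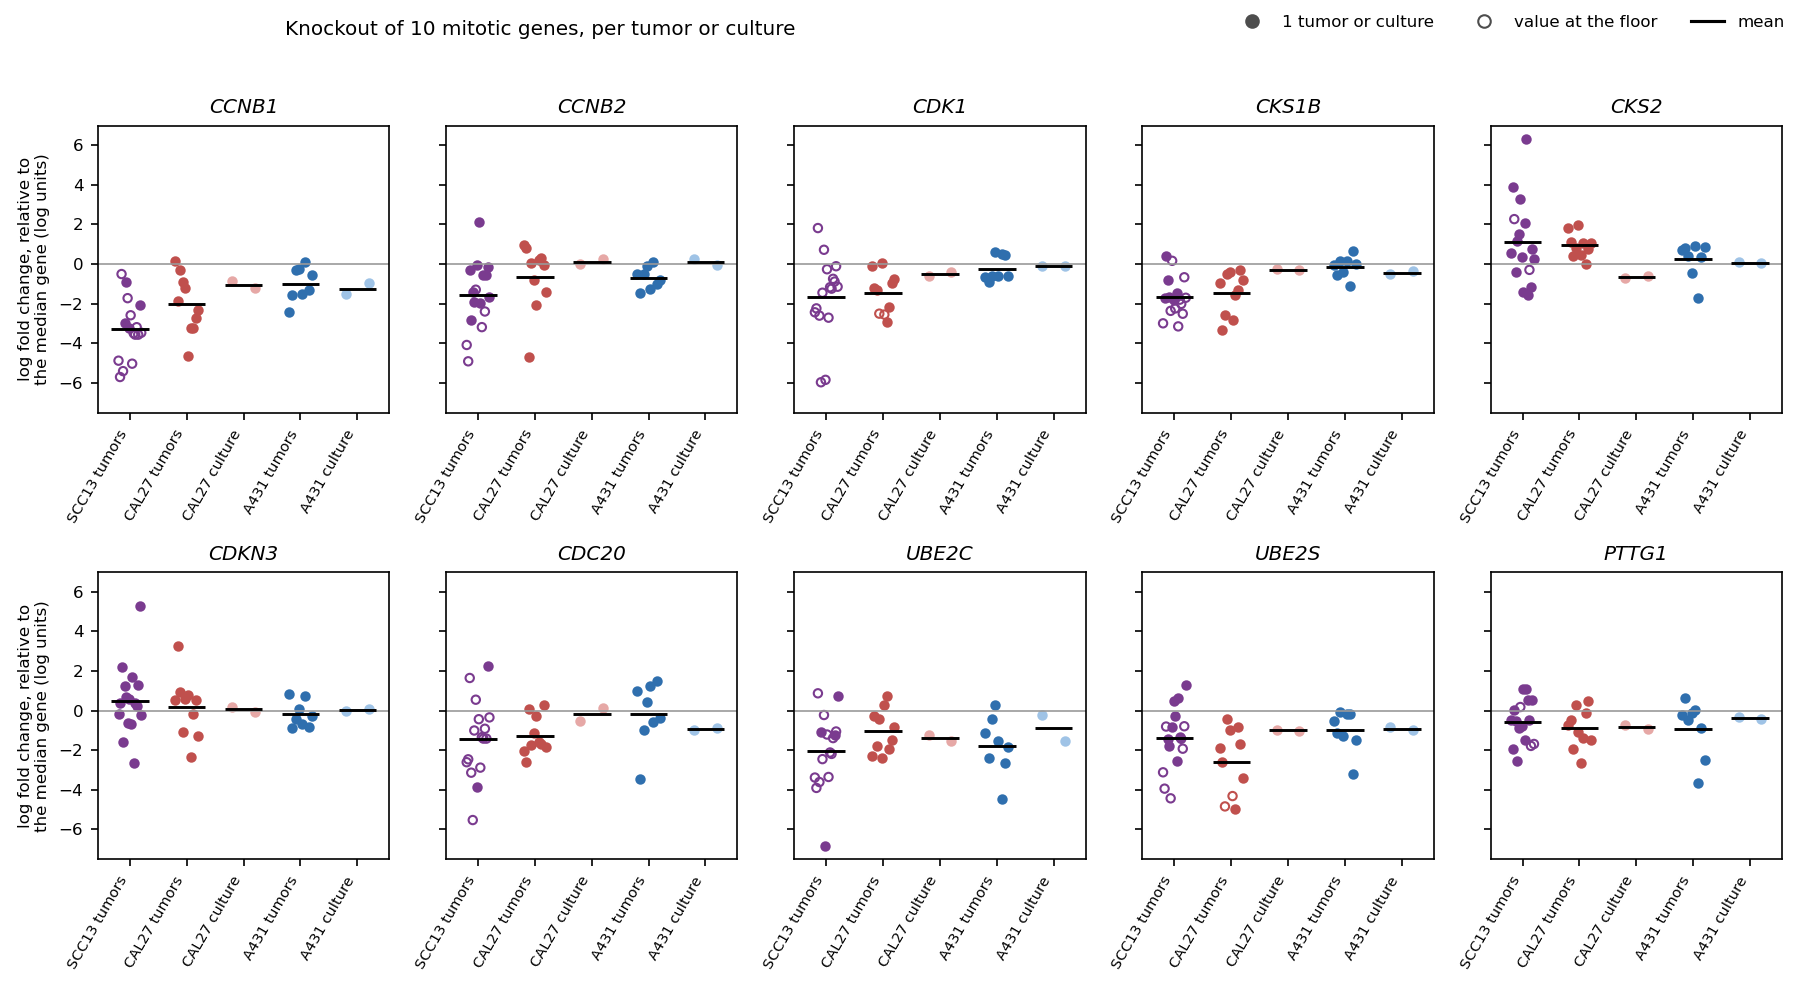
Every tumor or culture for each of the 10 genes, in log units relative to the median gene (y axis), by line and setting (x axis); open points are values at the floor and bars are means. CCNB1 points lie below 0 in all SCC13 tumors, CKS2 points lie above 0 in all CAL27 tumors and below 0 in both CAL27 cultures, and CDKN3 points straddle 0.

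Of the genes of the anaphase-promoting complex, the conjugating enzymes were lost in more groups than the activator CDC20. UBE2S (chr19:55911113-55919156, minus strand) had its lowest mean in log units in CAL27 tumors, where all 10 values lay below 0. They ran from -4.96 to -0.41 with a median of -2.24 (mean -2.59 ± 1.70, SD, limma adjusted p = 8.81e-05), and 2 of them were at the floor. It also fell in the other groups, with -1.39 ± 1.59 in SCC13 tumors (n = 16), -0.97 and -1.01 in the CAL27 cultures, -1.003 ± 1.04 in A431 tumors (n = 8, all below 0) and -0.84 and -0.96 in the A431 cultures. Their limma adjusted p values were 0.00742, 0.00733, 0.0350 and 0.0139 in that order. Divided by each column's own spread over genes (median absolute deviation), the order of the groups was another. The UBE2S mean was then -3.56 in CAL27 culture, -2.80 in A431 culture, -1.70 in CAL27 tumors, -1.20 in A431 tumors and -0.54 in SCC13 tumors. The A431 tumor call was lost without the tumor of value column 1, 2, 4, 7 (mean -0.69, adjusted p = 0.0666) or 8.

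UBE2C (chr20:44441215-44445596, plus strand) was the lowest member in A431 tumors, from -4.44 to 0.27 with a median of -1.70, and 7 of 8 were below 0 (mean -1.77 ± 1.45, SD, limma adjusted p = 0.00700). It also fell in SCC13 tumors (-2.02 ± 1.94, SD, n = 16, limma adjusted p = 0.000184), CAL27 tumors (-1.04 ± 1.10, SD, n = 10, limma adjusted p = 0.0208, lost without value column 1, 5 or 8 at adjusted p up to 0.0616) and CAL27 cultures (-1.25 and -1.56, limma adjusted p = 0.00908). The 2 A431 cultures differed by over 1 log unit, at -0.23 and -1.52, and did not pass (limma adjusted p = 0.184).

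CDC20 (chr1:43824652-43828874, plus strand) fell in SCC13 tumors (from -5.53 to 2.26, median -1.38, mean -1.43 ± 2.00, SD, n = 16, limma adjusted p = 0.00766) and in CAL27 tumors (from -2.61 to 0.28, median -1.66, mean -1.26 ± 0.97, SD, n = 10, limma adjusted p = 0.00426). In A431 the cultures were at -0.97 and -0.89 and passed (limma adjusted p = 0.0139), while the tumors ran from -3.47 to 1.476 with a median of 0.02 and did not (mean -0.16 ± 1.61, SD, n = 8, limma adjusted p = 0.816). The difference between these settings did not pass (0.77, limma adjusted p = 0.970). In the CAL27 cultures it stood at -0.50 and 0.15 (limma adjusted p = 0.545).

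PTTG1 (chr5:159848862-159855746, plus strand), the securin gene, was called in CAL27 alone relative to the median gene. The CAL27 tumors ranged from -2.64 to 0.47 with a median of -0.90 (mean -0.90 ± 0.98, SD, n = 10, limma adjusted p = 0.0344, lost without value column 3, 5, 6, 7 or 10 at adjusted p up to 0.0855), and the CAL27 cultures gave -0.70 and -0.95 (mean -0.82 ± 0.17, SD, n = 2, limma adjusted p = 0.0201). Its mean in A431 tumors was nearly the same, -0.91 ± 1.44 (SD, n = 8), but rested on 2 tumors at -3.67 and -2.49 and did not pass (limma adjusted p = 0.116). The SCC13 tumors averaged -0.56 ± 1.11 (SD, n = 16, limma adjusted p = 0.308), and the A431 cultures were at -0.32 and -0.43 (limma adjusted p = 0.107). Against the non-targeting guides PTTG1 was also called lower in SCC13 tumors (-2.18), A431 tumors (-1.18) and A431 cultures (-0.74). Their limma adjusted p values were 4.54e-05, 0.0383 and 0.00767. The CAL27 tumor call ended with trend and robust settings (adjusted p = 0.0575), array weights (0.0512) and the sign-flip test (0.0571).

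Paralogs were then set against each other within the same tumor, which removes the tumor's own median. In all 16 SCC13 tumors the CKS1B value as it stands lay below the CKS2 value, by 2.75 ± 2.28 log units on average (SD). The differences of CKS1B minus CKS2 ran from -9.48 to -0.24. The exact two-sided sign-flip p was 3.05e-05 (adjusted p = 0.000275 over 9 tests), the smallest possible. In 2 of these tumors CKS2 was at the floor, so the order there is not known, although the test counts it. CKS1B lay below CKS2 in all 10 CAL27 tumors, where the difference ran from -4.42 to -1.03. The mean there was -2.41 ± 1.05 (SD, exact p = 0.00195, the smallest possible, adjusted p = 0.00586). In A431 tumors the difference was -0.38 ± 0.67 (SD, n = 8, exact p = 0.156, adjusted p = 0.234), with 5 of 8 below 0. The cultures gave 0.44 and 0.29 in CAL27 and -0.63 and -0.38 in A431, so CAL27 culture was the group where CKS1B lay above CKS2.

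CCNB1 lay below CCNB2 in 15 of 16 SCC13 tumors, with a mean difference of -1.70 ± 1.49 (SD, exact p = 0.000366, adjusted p = 0.00165). In CAL27 tumors 9 of 10 differences were below 0, from -3.57 to -0.41, but the tumor of value column 3 stood at 4.38, and the mean of -1.37 ± 2.33 did not pass (SD, exact p = 0.0938, adjusted p = 0.169). Without that tumor the mean was -2.01 (adjusted p = 0.00879). In A431 tumors the cyclins lay close together, at -0.28 ± 0.69 (SD, n = 8, exact p = 0.297), while the differences were -0.86 and -1.46 in the CAL27 cultures and -1.76 and -0.91 in the A431 cultures. UBE2C and UBE2S, which act at successive steps, differed in no line past the threshold: UBE2C minus UBE2S was -0.64 ± 2.17 in SCC13, 1.55 ± 2.45 in CAL27 and -0.77 ± 1.70 in A431 tumors (SD, exact adjusted p = 0.297, 0.169 and 0.297).

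The floor bears on the SCC13 pairs. Both cyclins were at the floor in 5 tumors, both CKS genes in 1 and both UBE2C and UBE2S in 6, and such a pair of values has no order. CKS2 was at the floor in 2 tumors, and its order against CKS1B is not known in either. The SCC13 mean of UBE2C minus UBE2S, -0.64, includes the 6 tumors without order. Over the 4 tumors with neither cyclin at the floor the mean of CCNB1 minus CCNB2 was -1.39 (adjusted p = 0.360), and over the 5 with neither CKS gene at the floor that of CKS1B minus CKS2 was -2.90 (adjusted p = 0.281). Both means kept their sign, and exact tests of 4 and 5 tumors cannot go below 0.125 and 0.0625. No CCNB or CKS value of a CAL27 tumor was at the floor, whereas 2 UBE2S values were. Neither UBE2C nor UBE2S was at the floor in 3 SCC13 and 8 CAL27 tumors. Over these the SCC13 minus CAL27 difference of UBE2C minus UBE2S was -3.37 (exact permutation adjusted p = 0.2945).

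**Figure D4:**
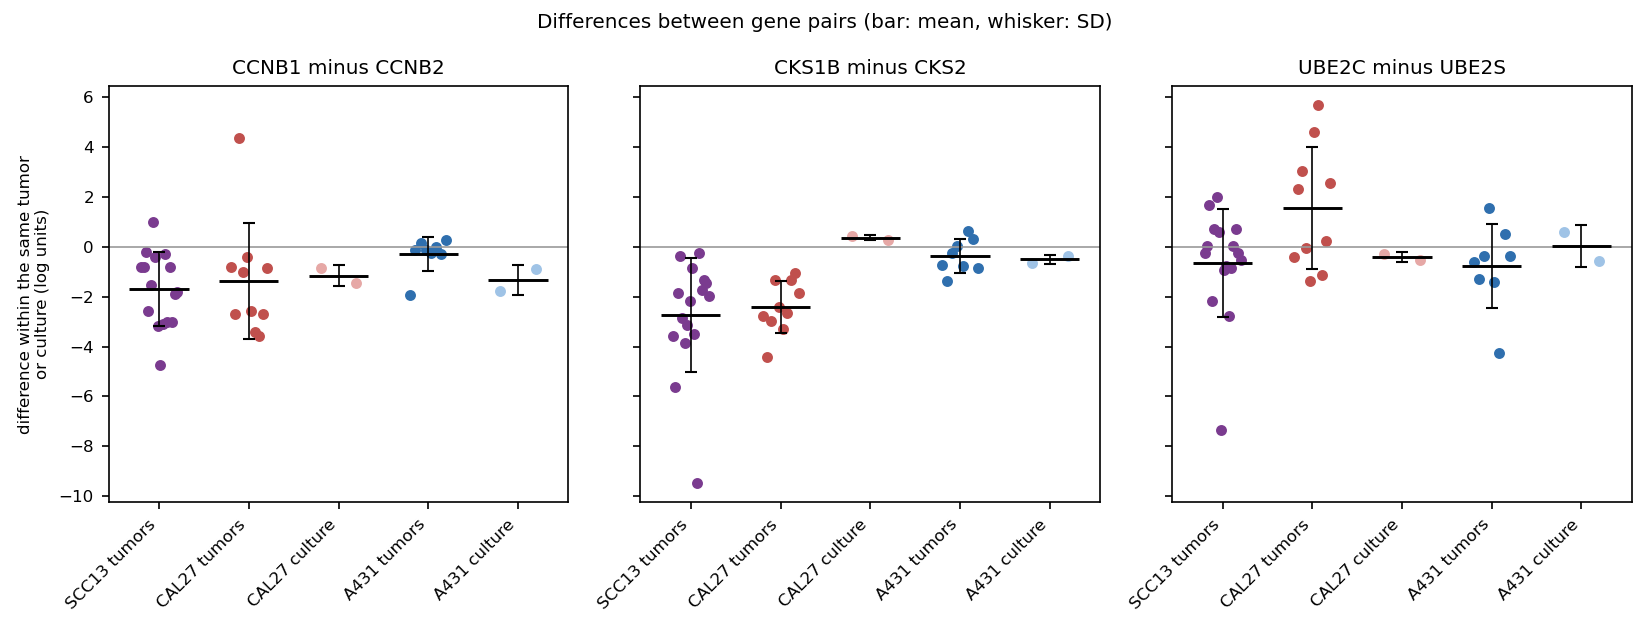
Difference of CCNB1 minus CCNB2, CKS1B minus CKS2 and UBE2C minus UBE2S within each tumor or culture (points, log units, y axis) by line and setting (x axis); bars are means and whiskers SD. The CKS1B minus CKS2 points lie below 0 in all SCC13 and CAL27 tumors and above 0 in both CAL27 cultures, and 1 CAL27 tumor stands at 4.38 for the cyclins.

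The pair differences also differed between lines. For CKS1B minus CKS2 the mean was 2.03 log units lower in CAL27 tumors than in A431 tumors (-2.03, exact permutation p = 0.00032, adjusted p = 0.00288 over 9 tests), and SCC13 minus A431 tumors was -2.37 (exact permutation p = 0.00562, adjusted p = 0.0253, lost without any 1 of 4 tumors at adjusted p up to 0.0629). SCC13 minus CAL27 tumors was -0.34 (permutation p = 0.698). For CCNB1 minus CCNB2, SCC13 minus A431 tumors was -1.41 (exact permutation p = 0.0188, adjusted p = 0.0471), a call that ended on leaving out any 1 of 18 of the 24 tumors (adjusted p up to 0.0807), while CAL27 minus A431 tumors was -1.09 (exact permutation adjusted p = 0.345), or -1.72 without the CAL27 tumor of value column 3 (adjusted p = 0.0169). For UBE2C minus UBE2S, SCC13 minus CAL27 tumors was -2.19 (permutation p = 0.0210, adjusted p = 0.0471, lost without any 1 of 17 of the 26 tumors) and CAL27 minus A431 tumors was 2.32 (exact permutation adjusted p = 0.0654). Values per column spread (median absolute deviation) ended the 3 calls that involve SCC13 and kept the CAL27 minus A431 call for the CKS pair.

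Tumors were next compared with culture within a line, the question being whether the knockouts fared differently in the 2 settings. Tumors grew for about 2 months and cultures for 3 weeks, each set against its own initial samples. Setting, length of growth and initial samples therefore cannot be told apart in this comparison. No member passed in either line by limma, as was the case for all 327 genes (0% called in either direction). At an unadjusted p under 0.05, 0 members were called in A431 and 1, CKS2, was higher in CAL27 tumors. Of all 327 genes, 7 were lower and 13 higher in A431 at that p, and 10 lower and 20 higher in CAL27. CKS2 stood 1.60 log units higher in CAL27 tumors than in CAL27 culture (SE 0.64, 95% interval 0.25 to 2.94, adjusted p = 0.407), and the 10 tumors and 2 cultures did not overlap. In the same comparison CKS1B gave -1.18 (interval -2.84 to 0.49), so the CKS1B minus CKS2 difference was -2.77 log units in tumors relative to culture. That comparison was added after the data were seen. Its exact permutation p of 0.0152 is the smallest that 10 against 2 allows (adjusted p = 0.0909 over 6 tests).

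The other CAL27 differences ran from -1.60 for UBE2S (interval -3.79 to 0.59) to 0.36 for UBE2C (interval -1.31 to 2.03). In A431 they ran from -0.90 for UBE2C (interval -2.77 to 0.97) to 0.77 for CDC20 (interval -1.24 to 2.77). Each of these intervals spans more than 1 log unit. The spread over genes was larger in each CAL27 tumor than in the CAL27 cultures, whereas A431 tumors lay on both sides of the A431 cultures, with an SD over genes of 1.09 to 2.23 per CAL27 tumor against 0.57 and 0.59 per CAL27 culture, and 0.42 to 1.34 per A431 tumor against 0.50 and 0.51 per A431 culture. With a spread fitted for each group, 4 members were lower (CDK1, CKS1B, CDC20 and UBE2S) and CKS2 higher in CAL27 tumors, and CCNB2 was lower in A431 tumors. The share of all genes called in that setting is not given, so these counts have no background beside them. Scaled to each column's own spread, the direction turned for CCNB1, UBE2S and PTTG1 in CAL27, which were higher in tumors by 2.34, 1.85 and 2.34 such units (limma adjusted p = 0.00791, 0.0340 and 0.00169). The tumor minus culture difference itself did not differ between CAL27 and A431 for any member by limma (0% of genes called). At an unadjusted p under 0.05, 0 members were called in that contrast, against 4 lower and 5 higher of all 327 genes.

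**Figure D5:**
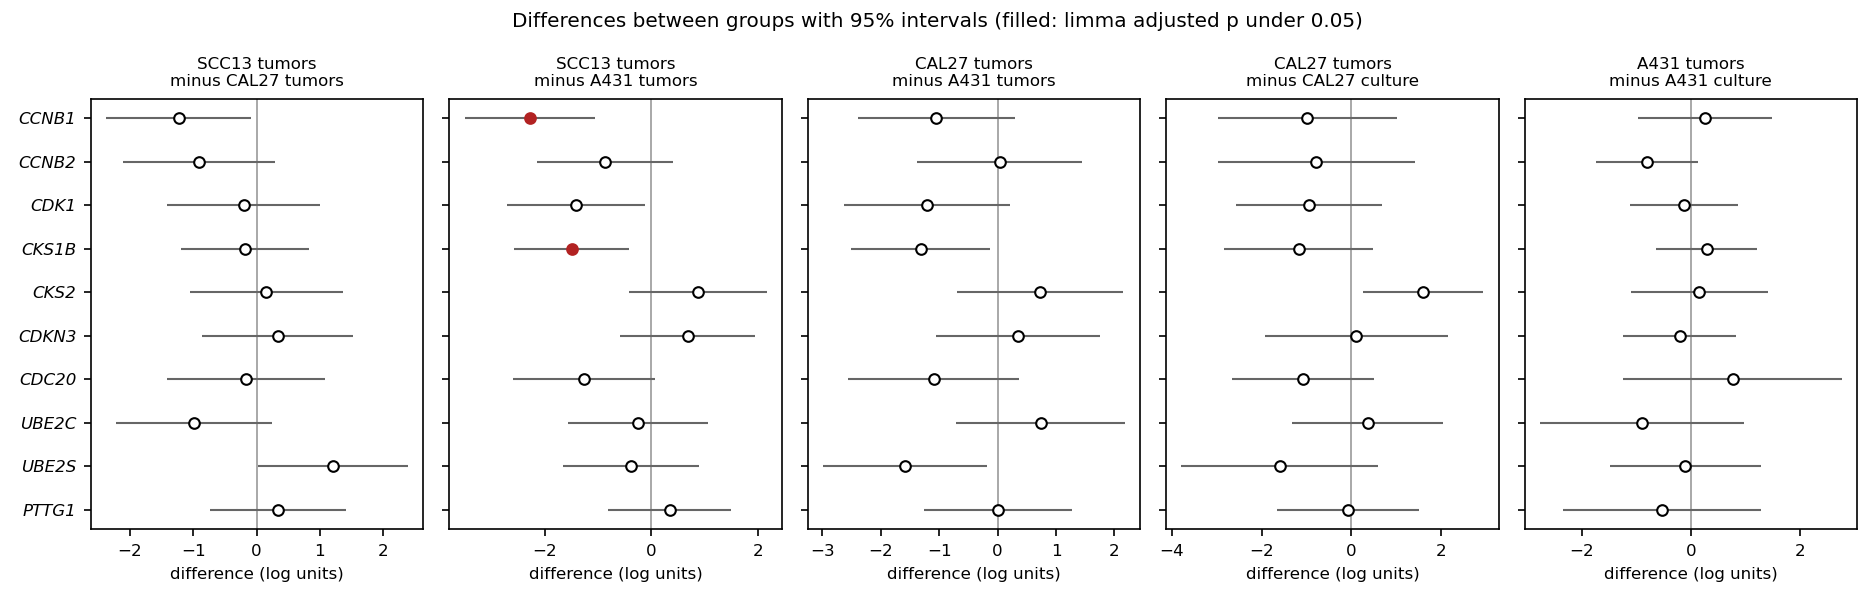
Difference between groups for each of the 10 genes (points, log units) with 95% intervals from limma, for the 3 contrasts between tumors of different lines and the 2 of tumors minus culture; filled points have an adjusted p under 0.05. The filled points are CCNB1 and CKS1B in SCC13 minus A431 tumors, and the CKS2 interval of CAL27 tumors minus culture lies above 0.

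Between tumors of different lines, CCNB1 showed the largest called difference. Its mean was 2.29 log units lower in SCC13 than in A431 tumors (-2.29, SE 0.62, limma adjusted p = 0.00583), and CKS1B was also lower (-1.50, SE 0.54, limma adjusted p = 0.0386). The 2 groups overlapped for both genes. These 2 of 10 members compare with 10.7% of all genes called lower and 10.4% called higher in that contrast. In units of each tumor's own spread the CCNB1 difference was -0.08 and the CKS1B difference -0.52, and neither passed. Leaving out any of 9 tumors ended the CKS1B call (for example the tumor of value column 7 of A431, adjusted p = 0.0824), and none ended that of CCNB1. Over the 3 lines together, the moderated F test of limma called CCNB1 (adjusted p = 0.0090) but not CKS1B (adjusted p = 0.0745) nor any other member.

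No member passed between CAL27 and A431 tumors by limma, against 3.06% of genes lower and 0.306% higher. At an unadjusted p under 0.05, 2 did (CKS1B at -1.31 and UBE2S at -1.59), against 39 lower and 19 higher of all 327 genes. None passed between SCC13 and CAL27 tumors either, against 7.95% lower and 9.79% higher. There CCNB1 (-1.23) and UBE2S (1.20) had an unadjusted p under 0.05, as did 43 lower and 62 higher of all 327 genes. In culture, CKS2 was the 1 member called between lines, 0.72 lower in CAL27 than in A431 (-0.72, SE 0.13, limma adjusted p = 0.0403), against 2.75% of genes lower and 0.306% higher. With 2 cultures each, leaving out any 1 of the 4 ended this call. CDC20 was 0.75 higher in CAL27 than in A431 culture without passing (interval 0.21 to 1.30, limma adjusted p = 0.137).

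Other genes of the same machinery were few in the tables. Of 27 other cyclins, CDKs and CDK regulators listed, 2 were measured: CCND2, a G1 cyclin, fell in SCC13 tumors (-2.42, SE 0.45, limma adjusted p = 5.00e-06), and CDKN2B, an inhibitor of the G1 kinases CDK4 and CDK6, rose there (7.72, SE 0.50, limma adjusted p = 1.71e-24) and in CAL27 tumors (1.45, SE 0.34, limma adjusted p = 0.00173). None of 17 other subunits, coactivators or inhibitors of the anaphase-promoting complex had a row. Of 22 other substrates of the complex, 6 were measured: CENPF, HMMR, NUSAP1, PLK1, TK1 and TPX2. In SCC13 tumors 3 of the 6 fell and 1 rose, against 23.9% and 23.5% of all genes. In CAL27 tumors 2 fell and 1 rose, against 22.0% and 18.7%. In CAL27 cultures 3 fell, against 18.7%, and in A431 tumors and A431 cultures 1 fell each, against 11.9% and 11.3%. Whether these counts differ from the shares of all genes was not tested.

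TPX2, which activates Aurora A kinase at the spindle, was the lowest called substrate in SCC13 tumors (-1.77), CAL27 tumors (-1.99), CAL27 cultures (-0.59) and A431 cultures (-0.81), and CENPF, a kinetochore protein, in A431 tumors (-1.12). The called substrates that rose were NUSAP1, a spindle-associated protein, in SCC13 tumors (1.58) and TK1, a thymidine kinase, in CAL27 tumors (1.11). Among 8 measured of 29 listed mitotic kinase, checkpoint and passenger genes, which share 4 members with the substrates, the lowest called gene in CAL27 tumors (-3.91), CAL27 cultures (-1.88) and A431 tumors (-1.97) was SMC4, a condensin subunit. BIRC5, which encodes the passenger protein survivin, rose in SCC13 tumors (2.06) but fell in CAL27 tumors (-1.99), CAL27 cultures (-0.62) and A431 tumors (-1.25). MKI67, a proliferation marker that coats mitotic chromosomes, was the highest called gene of this list in CAL27 tumors (1.004). The rises given for these lists are relative to the median gene. Against the non-targeting guides that gene lay between -2.67 and 0.53 in SCC13 tumors and between -1.50 and -0.56 in CAL27 tumors. Such a rise need not be a gain against those guides.

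Patterns over the 5 groups were also compared between genes, as the mean absolute difference of the 5 group means in units of column spread, a description with 5 points per gene. UBE2S was the member most like CCNB1 (0.50), and CDC20 the member most like CKS1B (0.39). CKS2 was the least like any other member, its nearest being CDKN3 at 0.86. Outside the 10, the genes nearest to CCNB1, UBE2S and CDC20 were HSP90B1 (0.29), TUBA1B (0.33) and TFDP1 (0.43). For CDK1, CKS1B, CKS2 and PTTG1 they were S100A11 (0.29), RCOR1 (0.33), SREBF1 (0.37) and RELA (0.19). For CCNB2, CDKN3 and UBE2C they were WNT10A (0.24), NR3C1 (0.15) and MCM3 (0.62).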

How the data were processed

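Guide abundance was sequenced in 48 samples, of which 10 were initial cells. Bowtie2 was used per the submitters' processing notes, with its version, the genome build, the guide summary per gene, the pseudocount and the log base not given in the sources used here. As deposited, the authors' tables hold 1 score per gene and later sample: a log fold change against the initial cells, with the non-targeting row at 0 in all 38 value columns. Depth is unknown. Columns carry no replicate numbers, so a value column is named by its place in the table and stands for 1 tumor or culture.

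Each column was centred on its median over 327 genes. Each table was fitted alone with limma 3.58.1 in R 4.3.3 (lmFit, eBayes) against 0. Tumors and culture of a line shared 1 fit, as did tumors of the 3 lines and cultures of the 2 lines. P-values were Benjamini-Hochberg adjusted over all 327 genes at 0.05. Fits across tables assume 1 log base. The initial cells are shared by all columns of a table, so their error enters no test. Gene pairs were tested with exact sign-flip tests (tumors of a line) and exact permutation tests or, where both groups had 10 or more, 100000 permutations, in Python 3.11.15 with numpy 2.4.6, all two-sided. Coding sequences came from GENCODE on GRCh37, aligned with Biopython 1.88. Fits were tested on simulated data.

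The named genes were the 10 members, for each the nearest other gene, and from each pathway list the lowest and highest called gene per comparison with initial cells, along with genes whose counts of 5 or fewer are spelled out. Members and lists were chosen with earlier results of these data known. Alternatives were the deposited values without centring, columns scaled to their median absolute deviation, eBayes with trend and robust settings, array weights, a spread per group, an exact sign-flip test, floor values left out and each column left out in turn.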

Additional observations from a re-analysis of the deposited data

Results flagged for a closer look

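In 26 tests of groups of CAL27 and A431 tumors, 4 values stood apart from the rest of their group, by Dixon's criterion, where chance gives about 1 in 20. The 16 SCC13 tumors were not tested this way. CCNB2 stood at -4.70 in the CAL27 tumor of value column 3, with the next lowest at -2.05, and in the same tumor CCNB1 minus CCNB2 was 4.38, with the next highest at -0.41. UBE2S stood at -3.18 in the A431 tumor of value column 7, with the next at -1.48. CCNB1 minus CCNB2 stood at -1.92 in the A431 tumor of value column 1, with the next at -0.31.

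Differences between lines were called by limma for CCNB1 (-2.29) and CKS1B (-1.50) in SCC13 minus A431 tumors and for CKS2 (-0.72) in CAL27 minus A431 culture. By permutation tests of the pair difference they were called for CCNB1 minus CCNB2 (-1.41) and CKS1B minus CKS2 (-2.37) in SCC13 minus A431 tumors, for CKS1B minus CKS2 (-2.03) in CAL27 minus A431 tumors and for UBE2C minus UBE2S (-2.19) in SCC13 minus CAL27 tumors.

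Every sample of 1 group lay above 0 and every sample of the other below it in 4 differences. CKS2 was below 0 in both CAL27 cultures and above 0 in both A431 cultures (-0.72, given above). CKS2 was above 0 in all 10 CAL27 tumors and below 0 in both CAL27 cultures (1.60, limma adjusted p = 0.407). CKS1B minus CKS2 was below 0 in all 10 CAL27 tumors and above 0 in both CAL27 cultures (-2.77, exact adjusted p = 0.0909). CKS1B minus CKS2 was above 0 in both CAL27 cultures and below 0 in both A431 cultures (0.87), a difference that was not tested.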

How the results depend on the processing

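No paired analysis was possible because the value columns carry no replicate numbers. The share of all genes called is not given for the settings below. Their member counts therefore show how the calls moved and have no background to be set against. Without centring, the median gene itself lay at -0.47 and -0.49 in the CAL27 cultures. Without centring, members called lower numbered 10 in CAL27 culture, 7 in A431 culture, 6 in SCC13 minus A431 and 2 in SCC13 minus CAL27 tumors, and members called higher 0 in SCC13 and 0 in CAL27 tumors, with values turned below 0 for CKS2 (-0.52) and CDKN3 (-1.11) in SCC13 tumors and for CCNB2 (-0.37) and CDKN3 (-0.41) in CAL27 culture. With columns scaled to their spread, 5 members were lower in A431 culture, 0 higher in SCC13 tumors, 0 lower in SCC13 minus A431 tumors, 1 higher in SCC13 minus CAL27 tumors, and 5 higher in CAL27 and 1 in A431 tumors minus culture, where CCNB1 (2.34), UBE2S (1.85), PTTG1 (2.34) and the CAL27 CCNB1 minus CCNB2 difference (3.09) turned. In those units CCNB1 minus CCNB2 was -4.09 in CAL27 and -4.25 in A431 culture, 3.92 in A431 tumors minus culture and -0.42 in SCC13 minus A431 tumors. CKS1B minus CKS2 was 1.33 in CAL27 and -1.61 in A431 culture, -3.01 in CAL27 tumors minus culture (adjusted p = 0.0444) and -0.58 in SCC13 minus A431 tumors. UBE2C minus UBE2S was -1.43 in CAL27 culture and -1.17 in SCC13 minus CAL27 tumors.

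Leaving out floor values left 1 member lower and 0 higher in SCC13 tumors, with no value for CDK1, and ended the pair calls of CCNB1 minus CCNB2 (-1.39 within SCC13, -1.11 in SCC13 minus A431 tumors), CKS1B minus CKS2 (-2.90 within SCC13) and UBE2C minus UBE2S (-3.37 in SCC13 minus CAL27 tumors), with fewer tumors tested. The sign-flip test called 0 lower in A431 tumors and 0 higher in SCC13 tumors. Array weights gave 0 higher in SCC13 tumors, 1 lower and 1 higher in CAL27 tumors minus culture, 2 lower in CAL27 minus A431 tumors, 4 lower in SCC13 minus A431 tumors, and 2 lower and 1 higher in the CAL27 minus A431 difference of tumors minus culture. A spread per group gave 4 lower and 1 higher in CAL27 and 1 lower in A431 tumors minus culture, 3 lower in CAL27 minus A431 tumors, and 2 lower and 1 higher in that last difference. The cause of these shifts was not tested.

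With each column left out, counts ranged from 1 to 4 lower in A431 tumors, 0 to 1 higher in SCC13 tumors, 1 to 3 lower in SCC13 minus A431 tumors and 0 to 0 lower in CAL27 minus A431 culture. The A431 tumor count was 1 without value column 1 or 7. CCNB1 minus CCNB2 ranged from -2.01 to -1.13 in CAL27 tumors, from -1.72 to -0.84 in CAL27 minus A431 and from -1.65 to -1.21 in SCC13 minus A431 tumors. CKS1B minus CKS2 in SCC13 minus A431 tumors ranged from -2.54 to -1.92, and UBE2C minus UBE2S from 1.83 to 2.66 in CAL27 minus A431 and from -2.51 to -1.73 in SCC13 minus CAL27 tumors. A culture left out of its own table gave no test. Values past no threshold in either setting changed sign in 41 of 669 comparisons of settings and 61 of 1884 with a column left out. Depth, and with it the counting error, is unknown.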
